A study of Rattus norvegicus with 20 samples.

Results

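The comparison described here is the difference of a microRNA mimic's effect between whole tissue and the synaptic fraction of the rat ventral hippocampus, taken across all genes. For each gene it is the mimic-minus-control difference in synaptoneurosomes minus the mimic-minus-control difference in homogenate, on the log2 scale. A value below 0 means that mimic minus control was lower in synaptoneurosomes than in homogenate, and a value above 0 that it was higher. It uses all 20 of the 20 arrays of the study, and 15465 of the 22093 genes named on the array were bright enough to be tested.

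The animals were male Sprague-Dawley rats aged 2 months. Control rats received a scrambled small RNA and mimic rats 200 pmol of a miR-17-5p mimic in 1.5 µl, injected into the ventral hippocampus on both sides under isoflurane, and all received the analgesic ketoprofen. Each treatment had 11 to 13 animals, later caged by treatment, and 5 arrays per fraction. The 2 fractions of both treatments make 4 groups. Whether each array is a different animal is not given, so p-values cover the spread between these arrays, which may be technical. Homogenate RNA was purified on a column and synaptoneurosome RNA by precipitation with isopropanol, so fraction and purification cannot be told apart, though both treatments shared each procedure. The labels give no batch.

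A microRNA guides the silencing complex to messenger RNAs that pair with its seed, bases 2 to 8, and the complex lowers their translation or stability. The miR-17 family shares its seed among several genomic clusters and is known for targets in the cell cycle, in TGF-beta signalling and in autophagy. Synaptoneurosomes are pinched-off pre- and postsynaptic endings, which hold dendritic messenger RNAs, mitochondria and parts of the silencing machinery. A mimic can therefore act in the cell body, at the synapse or in both, and the difference between the fractions asks where its effect on transcript levels differs.

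The mature sequence of the injected microRNA and those of the other rat microRNAs with the same seed follow, because this seed is what the family's targets, described below, have in common. They are from RefSeq, build GRCr8, 5′ to 3′, with the seed in capitals. The miR-17-5p sequence lies at chr15:98587861-98587883 on the plus strand, and RefSeq lists the same mature sequence under Mir106a on chromosome X.
rno-miR-17-5p: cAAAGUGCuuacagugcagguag
rno-miR-20a-5p: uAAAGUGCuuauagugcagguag
rno-miR-93-5p: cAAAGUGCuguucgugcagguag
rno-miR-106b-5p: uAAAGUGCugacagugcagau
rno-miR-20b-5p: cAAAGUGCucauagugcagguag
The array carries a probe set for the Mir17 precursor gene, which does not measure an injected mature mimic and so does not check the treatment. It was too dim to be tested. Its mean was 4.86 ± 0.17 (SD, n = 5) in homogenate control, 4.65 ± 0.11 in homogenate mimic, 4.62 ± 0.23 in synaptoneurosome control and 4.66 ± 0.14 in synaptoneurosome mimic.

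Markers of the tissue were present, and markers of the synaptic fraction did not all lie on the same side. Camk2a, the dendritic kinase of excitatory neurons, averaged 18.58 in homogenate control and 18.81 in synaptoneurosome control, and Flt1, an endothelial receptor, averaged 9.63 and 6.13 (both named after their values were seen). The median gene of the endothelium list was at -1.59 in synaptoneurosomes relative to homogenate in either treatment, and that of the glutamatergic postsynapse list at 0.51 in control and 0.39 in mimic rats. In control rats the same quantity was 0.21 for presynaptic vesicle genes, 0.23 for dendritic messenger RNAs, -0.01 for the scaffold and signalling genes of the postsynapse and -0.54 for excitatory neuron markers, and Nrgn, of the dendritic list, was at -1.43. The spread between arrays was wider in the synaptic fraction. The median gene had an SD of 0.12 and 0.11 in homogenate control and mimic against 0.21 and 0.17 in synaptoneurosome control and mimic. A first component of the spread within groups held 52.2% of the variance. Synaptoneurosome control 4 and 5 and mimic 5 stood apart on it with scores of 30.2, 45.1 and 53.0, while the other 7 synaptoneurosome arrays lay between -29.4 and -6.93 and the 10 homogenate arrays between -4.12 and 5.58. Below, these are called the 3 arrays that stood apart, and values without them are given where they bear on a result.

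No gene differed between the fractions in its response to the mimic at an adjusted p under 0.05 (limma, Benjamini-Hochberg over 15465 genes, 0.0% called), and the smallest adjusted p was 0.998. At an unadjusted p under 0.05, 243 genes were counted (1.57% of those tested), of which 74 were above 0 (0.478%) and 169 below 0 (1.09%). Arrays with the same number in both fractions deviated together, so the fit was repeated with the number as a block. It also called none, with a smallest adjusted p of 0.967, and counted 494 genes at an unadjusted p under 0.05 (3.19%), 111 above 0 and 383 below 0. The values behind these counts were small. The median gene stood at -0.026, with a lower quartile of -0.142 and an upper quartile of 0.06. Only 2 genes reached 1 or more and 11 reached -1 or less. For 14078 genes (91.0%) the 95% interval of the difference lay within 1 log2 unit of 0, and the median half-width of that interval was 0.326.

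More genes were below 0 than above it, 8894 against 6475, with 96 at exactly 0. Mimic and control differed in opposite directions in the fractions for 7624 genes (49.3%). In 4859 of these mimic was above control in homogenate and below it in synaptoneurosomes, and in 2765 the other way round. Among the 243 genes, 233 had opposite directions. A low p for the difference picks such genes, so this count follows from the choice and is no separate result. In 156 of the 243 mimic minus control was larger in absolute size in synaptoneurosomes than in homogenate. That share was not taken over all genes, and the spread between arrays was wider in synaptoneurosomes. The share of the counted genes that lay above 0 depended on how arrays were scaled. It was 30.5% on the deposited values, 17.2% after quantile scaling of all 20 arrays and 11.0% after setting each array's median to 0, and the median of all genes was then -0.036 and -0.067. It also depended on brightness. Of 5 bins of about equal size by brightness, in the dimmest 52 genes were counted above 0 and 28 below it, and in the brightest 0 and 28, while the medians of the bins ran from 0.012 to -0.072. On the centred values each bin had a median below 0, from -0.029 in the dimmest to -0.113 in the brightest.

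**Figure D1:**
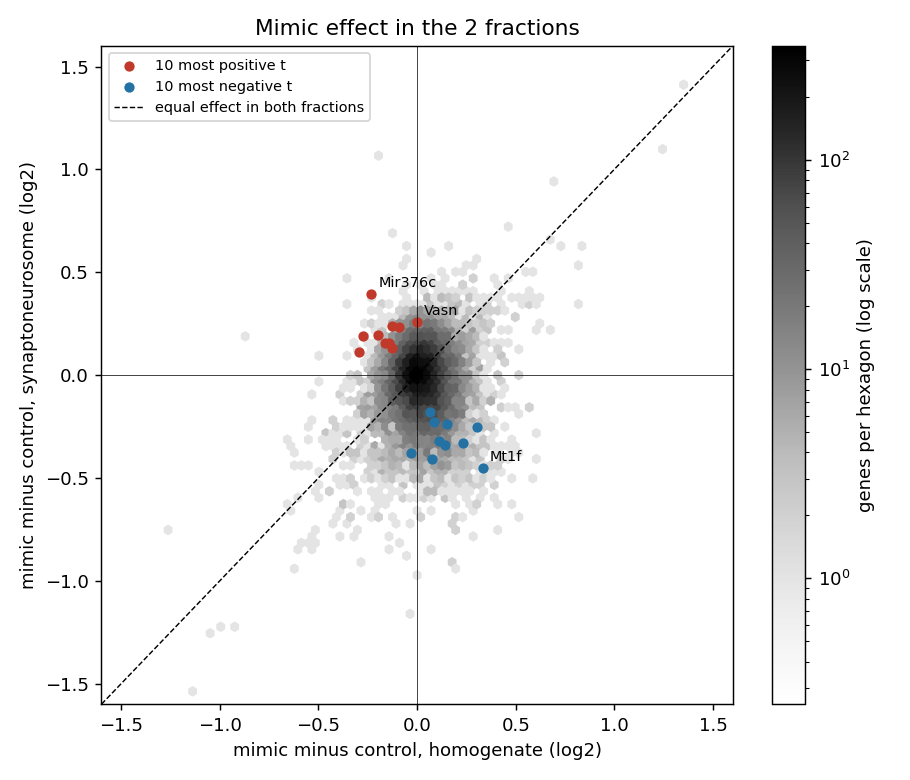
Mimic minus control in homogenate (x axis, log2) against mimic minus control in synaptoneurosomes (y axis, log2) for 15465 genes, as counts per hexagon on a log grey scale; coloured points are the 10 genes with the most positive and the 10 with the most negative moderated t, and the dashed line marks an equal effect. The red points lie above the line and the blue points below it, and Mt1f, at 0.33 and -0.45, lies farthest below it of the blue points.

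The 10 genes with the most negative moderated t were Mt1f, Spink4, Rpl36al1, Ppm1d, Uba3-ps2, Pyurf, Eva1b, Cstf3-ps1, Cldn9 and Hspd1-ps5, with differences from -0.24 to -0.78 and every adjusted p at 0.998. Mt1f, a metallothionein that binds zinc and copper, stood at -0.78 ± 0.21 (SE, 95% interval -1.23 to -0.34), with mimic minus control at 0.33 in homogenate and -0.45 in synaptoneurosomes. Its homogenate arrays read 5.44, 5.42, 5.76, 5.72 and 5.87 in control rats and 5.88, 5.95, 5.64, 6.54 and 5.86 in mimic rats. Its synaptoneurosome arrays read 5.94, 5.93, 5.67, 6.16 and 5.59 in control rats and 5.31, 5.28, 5.30, 5.73 and 5.41 in mimic rats. The homogenate groups overlapped with homogenate mimic 4 the highest, and of the synaptoneurosome mimic arrays only number 4 reached into the control range. The value was -0.77 without the 3 arrays that stood apart and -0.64 without homogenate mimic 4.

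Rpl36al1, a copy of the ribosomal protein L36a gene whose probes may also read other copies, stood at -0.43 ± 0.12 on its brighter probe set and at -0.11 on the other. In homogenate it read 10.04, 10.34, 10.04, 10.36 and 10.34 in control rats and 10.32, 10.29, 10.28, 10.46 and 10.32 in mimic rats. In synaptoneurosomes it read 10.25, 10.54, 10.29, 10.39 and 10.43 in control rats and 10.01, 10.01, 9.86, 10.24 and 10.19 in mimic rats. The homogenate groups overlapped, and all synaptoneurosome mimic arrays lay below all control arrays of that fraction. Pyurf, whose human transcript also encodes a subunit of the enzyme that starts GPI anchors, stood at -0.48 ± 0.15 on its brighter probe set and at -0.02 on the other. Its synaptoneurosome arrays read 6.67, 7.04, 6.84, 6.32 and 6.83 in control rats and 6.51, 6.42, 6.38, 6.54 and 6.14 in mimic rats, and its homogenate arrays 7.04, 7.24, 7.02, 6.85 and 7.09 against 7.11, 7.18, 7.15, 7.32 and 7.18. Synaptoneurosome control 4 was low and lay inside the mimic range, and the homogenate groups overlapped.

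Ppm1d, a phosphatase induced by p53 that turns off DNA damage signalling, stood at -0.55 ± 0.18, with mimic minus control at 0.30 in homogenate and -0.25 in synaptoneurosomes. Its homogenate arrays read 8.53, 8.46, 8.22, 8.51 and 8.55 in control rats and 8.66, 8.74, 8.65, 9.0 and 8.73 in mimic rats. All homogenate mimic arrays lay above all control arrays. In synaptoneurosomes the groups overlapped, with 7.69, 8.17, 7.94, 8.30 and 8.51 in control rats and 7.98, 7.73, 7.76, 7.78 and 8.10 in mimic rats. Cldn9, a claudin of tight junctions, stood at -0.39 ± 0.13, and Spink4, a serine protease inhibitor known from the gut, at -0.31 ± 0.09 on values near the dim end of the array, 4.97 to 5.52. Eva1b stood at -0.24 ± 0.08. Of the 3 pseudogenes, Uba3-ps2 stood at -0.56 ± 0.18, Cstf3-ps1 at -0.48 ± 0.16 and Hspd1-ps5 at -0.35 ± 0.12. Their parent genes encode a subunit of the NEDD8-activating enzyme, a cleavage factor of messenger RNA 3′ ends and the mitochondrial chaperonin, and probes of a pseudogene may also read its parent.

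The 10 genes with the most positive moderated t were LOC102552186, Kmt5c-ps1, Mir376c, LOC102554193, LOC102553197, Med22, Sms-ps2, Vasn, Mrgprg and Evx1, with differences from 0.26 to 0.63, again with every adjusted p at 0.998. Of these, 3 are long non-coding RNAs with no role given here and 2 are pseudogenes. All but Med22 and Sms-ps2 lay near the dim end of the array, with group means from 4.86 to 5.82 against the limit for testing of 4.97. LOC102552186 stood at 0.40 ± 0.10 and had the largest absolute t of all tested genes. Its homogenate arrays read 5.54, 5.31, 5.67, 5.62 and 5.43 in control rats and 5.26, 5.31, 5.01, 5.18 and 5.35 in mimic rats, and its synaptoneurosome arrays 5.48, 5.40, 5.55, 5.57 and 5.41 against 5.54, 5.62, 5.56, 5.60 and 5.65. Most mimic arrays were low in homogenate, the synaptoneurosome groups overlapped, and within a number synaptoneurosome minus homogenate ran from -0.12 to 0.09 in control and, without overlap, from 0.28 to 0.55 in mimic rats. Vasn, which encodes vasorin, a membrane protein that binds TGF-beta, stood at 0.26 ± 0.09. It read 5.72, 5.36, 5.61, 5.59 and 5.43 in synaptoneurosomes of control rats and 5.81, 5.75, 5.80, 5.86 and 5.77 in those of mimic rats, without overlap, while in homogenate mimic minus control was -0.002. Med22, a Mediator subunit, stood at 0.33 ± 0.10 on its brighter probe set and at 0.04 on the other, and Evx1, a homeobox factor, at 0.26 ± 0.09 and -0.04. Mrgprg, a Mas-related receptor, stood at 0.30 ± 0.11, Sms-ps2 at 0.46 ± 0.16 and Kmt5c-ps1 at 0.37 ± 0.10.

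Within a number, the 5 mimic and 5 control values of synaptoneurosome minus homogenate did not overlap for 60 genes (0.388% of those tested), 19 with mimic above control (0.123%) and 41 with mimic below (0.265%). Of the 243 genes counted at an unadjusted p under 0.05, 36 were among the 60. Of the 20 genes with the most extreme t, 7 were separated with mimic above control (LOC102552186, Kmt5c-ps1, LOC102554193, LOC102553197, Sms-ps2, Vasn and Evx1) and 5 with mimic below (Mt1f, Rpl36al1, Pyurf, Eva1b and Hspd1-ps5). A high t chose these genes from the same arrays, so the separation does not stand as separate evidence.

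**Figure D2:**
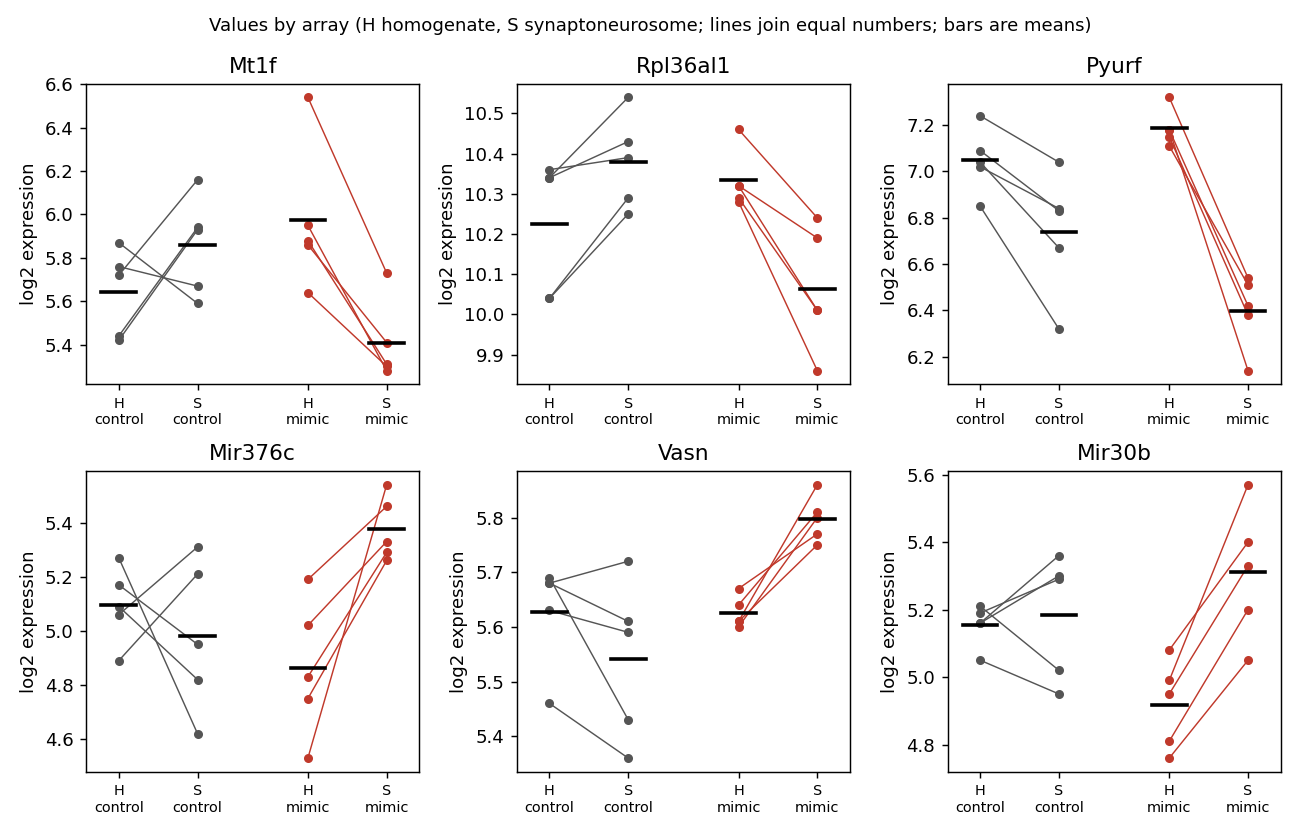
Log2 expression (y axis) of 6 genes on each of the 20 arrays, by fraction and treatment on the x axis; points are arrays, lines join arrays with the same number, and bars are group means. For Mt1f, Rpl36al1 and Pyurf all mimic lines run downward, and for Mir376c, Vasn and Mir30b they run upward, while the control lines all run upward for Rpl36al1, all run downward for Pyurf and run in mixed directions for Mt1f and Mir30b.

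The largest differences in size, as opposed to t, belonged to other genes and came with wide intervals. On the positive side they were Rpph1 at 1.28 ± 0.81, Klhl34 at 1.05 ± 0.76, Apeg3 at 0.83 ± 0.44, Snord33 at 0.81 ± 0.61 and Cdc34-ps1 at 0.72 ± 0.61. Rpph1 is the RNA of RNase P, Klhl34 a kelch protein, Apeg3 an antisense transcript of the imprinted Peg3 locus and Snord33 a small nucleolar RNA. On the negative side they were Igfbp7 at -1.20 ± 0.61, Rps29 at -1.18 ± 0.76, Dad1 at -1.15 ± 0.83, Apod at -1.12 ± 0.85 and Ctss at -1.10 ± 0.72. Igfbp7 binds insulin-like growth factors, Rps29 is a ribosomal protein of the small subunit, Dad1 belongs to the oligosaccharyltransferase, Apod carries lipids, and Ctss is a lysosomal protease of microglia. The 95% interval of each of the 10 covers 0.

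Dad1 is an example. Its synaptoneurosome arrays read 8.36, 9.44, 8.01, 10.03 and 12.15 in control rats and 8.08, 8.21, 8.23, 8.39 and 10.38 in mimic rats. Its homogenate arrays read 9.02, 8.83, 8.88, 8.98 and 9.13 in control rats and 8.91, 8.97, 8.73, 10.13 and 9.15 in mimic rats. The high arrays were synaptoneurosome control 4 and 5, synaptoneurosome mimic 5 and homogenate mimic 4, and the groups overlapped in both fractions. Without these 4 arrays the value was -0.35. Rpph1 had the reverse pattern in the same arrays, with 15.85, 15.30, 16.05, 13.52 and 12.55 in synaptoneurosome control, 15.70, 16.20, 16.24, 16.19 and 14.30 in synaptoneurosome mimic, 16.61, 16.84, 16.98, 16.69 and 17.10 in homogenate control and 16.91, 17.08, 16.75, 15.19 and 17.26 in homogenate mimic. These 4 arrays held the lowest values of their groups or, for synaptoneurosome control, the 2 lowest, and without them the value was 0.19. Without the same 4 arrays Igfbp7 was at -0.58, Rps29 at -0.79, Apod at -0.63, Ctss at -0.37, Klhl34 at 0.54, Apeg3 at 0.42, Snord33 at 0.26 and Cdc34-ps1 at 0.25. The other probe sets of Rps29 gave -1.29, -0.91 and -0.57, and that of Rpph1 gave 1.04.

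Gene lists of pathways and cell types are described by their counts and medians beside those of all genes, whose median was -0.026 with 57.5% below 0. Members of a list move together across arrays and are not independent. The list with the lowest median was the metallothioneins, zinc-buffering proteins of astrocytes and neurons, with 5 of 5 tested members below 0 and a median of -0.78. Mt1m stood at -0.89 ± 0.54, Mt3, the form enriched in brain, at -0.84 ± 0.44, Mt2A at -0.66 ± 0.40 and Mt1 at -0.50 ± 0.30 (Mt1m and Mt2A completed the list and were named after their values were seen). Mt1f was the 1 member with an unadjusted p under 0.05, against 1.09% of all genes below 0. Mt3 read 12.71, 14.19, 12.72, 12.48 and 13.80 in synaptoneurosome control and 12.52, 12.96, 12.74, 12.82 and 12.73 in synaptoneurosome mimic. In homogenate Mt3 read 12.40, 12.63, 12.68, 12.81 and 12.79 in control rats and 12.69, 12.65, 12.57, 14.18 and 13.27 in mimic rats. Single arrays were high, synaptoneurosome control 2 and 5 and homogenate mimic 4, and the groups overlapped in both fractions. The list's median was -0.77 without the 3 arrays that stood apart, -0.50 without homogenate mimic 4 and -0.52 without all 4. The second probe set of Mt1 gave -0.11. Metallothionein genes resemble each other in sequence, and probes of some may also read others. Their levels differed, with homogenate control means of 12.66 for Mt3, 7.10 for Mt1 and 5.64 for Mt1f.

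Nuclear-encoded subunits of oxidative phosphorylation, the respiratory chain and ATP synthase of the inner mitochondrial membrane, had 68 of 71 tested members below 0 and a median of -0.27. By complex the median was -0.25 in complex I (35 of 36 below 0), -0.12 in complex II (3 of 4), -0.27 in complex III (9 of 9), -0.34 in complex IV (8 of 9) and -0.27 in ATP synthase (13 of 13). At an unadjusted p under 0.05, 1 of the 71 was counted against 1.09% of all genes below 0, Atp5d of the ATP synthase at -0.29 ± 0.13, and with the number as a block 10 were counted, all below 0, against 2.48% of all genes. Uqcr11 of complex III stood at -0.57 ± 0.29 and Ndufa12 of complex I at -0.45 ± 0.23. The median over members, each centred on its own mean, was 0.22, 0.22, -0.03, 0.20 and 0.31 in homogenate control, 0.18, 0.20, 0.06, 0.59 and 0.43 in homogenate mimic, -0.26, 0.03, -0.57, -0.28 and 0.29 in synaptoneurosome control, and -0.38, -0.29, -0.42, -0.40 and -0.05 in synaptoneurosome mimic. Synaptoneurosome control 5 and homogenate mimic 4 were the highest arrays of their groups, and within a number synaptoneurosome minus homogenate overlapped between the treatments. The list's median was -0.15 without synaptoneurosome control 5, -0.37 without control 3, -0.23 without the 3 arrays that stood apart, and -0.13 with 63 of 71 below 0 without homogenate mimic 4 as well.

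The other lists of energy metabolism and protein turnover lay on the same side. The proteasome, which degrades ubiquitin-tagged proteins, had 31 of 31 members below 0 and a median of -0.30, glycolysis 16 of 16 and -0.24, and the citric acid cycle with pyruvate dehydrogenase 14 of 17 and -0.22. Without the 3 arrays and homogenate mimic 4 their medians were -0.16, -0.12 and -0.11, with 27, 15 and 15 members below 0. In the proteasome 1 of 31 subunits was counted at an unadjusted p under 0.05, against 1.09% of all genes below 0, which was Psma7 at -0.36 ± 0.16. With the block 6 of 31 were counted, against 2.48% of all genes. Psmb6, a catalytic subunit, stood at -0.68 ± 0.36 and Psma4 at -0.47 ± 0.24. In glycolysis Tpi1 stood at -0.37 ± 0.25 (-0.25 on its other probe set). It was the 1 of 16 members counted with the block, against 2.48% of all genes below 0. Its synaptoneurosome minus homogenate values were -0.86, -0.82, -0.78, -0.62 and -0.63 in control rats and -1.35, -1.16, -0.98, -1.07 and -0.98 in mimic rats. These did not overlap, which held for 1 of 16 members, against 0.265% of all genes with mimic below control. In the citric acid cycle Dlat, the acetyltransferase of pyruvate dehydrogenase, stood at -0.21 ± 0.09. It was the 1 of 17 members counted without the block, against 1.09% of all genes below 0. Idh3b stood at -0.56 ± 0.28 and Idh3a at -0.42 ± 0.20. With the block 4 of 17 members were counted, against 2.48% of all genes below 0. Mitochondrially encoded transcripts had 3 tested members with a median of -0.11. They lay at the top of the array's range, with COX1 at 19.92 or 19.93 on every homogenate array against a maximum of 19.93 in the table, so a difference there cannot be read.

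Ribosomal proteins behaved less evenly. The mitochondrial ribosome had 72 of 78 members below 0 and a median of -0.16, and -0.08 with 59 below 0 without the 4 arrays. At an unadjusted p under 0.05 it had 3 of 78 members, against 1.09% of all genes below 0, which were Mrpl2 at -0.29 ± 0.12, Mrps18b at -0.29 ± 0.13 and Mrps17 at -0.36 ± 0.16. With the block it had 11 of 78, against 2.48% of all genes. The cytosolic ribosome had 59 of 71 below 0 and a median of -0.15, at -0.19 in the large subunit (40 of 44) and -0.08 in the small subunit (19 of 27). None of its members was counted at an unadjusted p under 0.05. With the block 2 of 71 were counted, both below 0, against a similar share of all genes, 2.48%. They were Rps7 at -0.84 ± 0.46 (-0.25 on its other probe set) and Rpl10a at -0.43 ± 0.26 (-0.47 and -0.23 on its others). The list's median was -0.28 without the 3 arrays that stood apart and -0.31 without synaptoneurosome control 4 alone. In that array the list's centred median was -0.66 against -0.06 to 0.54 in the other synaptoneurosome control arrays. Without synaptoneurosome control 2, the highest of them, it was -0.06.

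**Figure D3:**
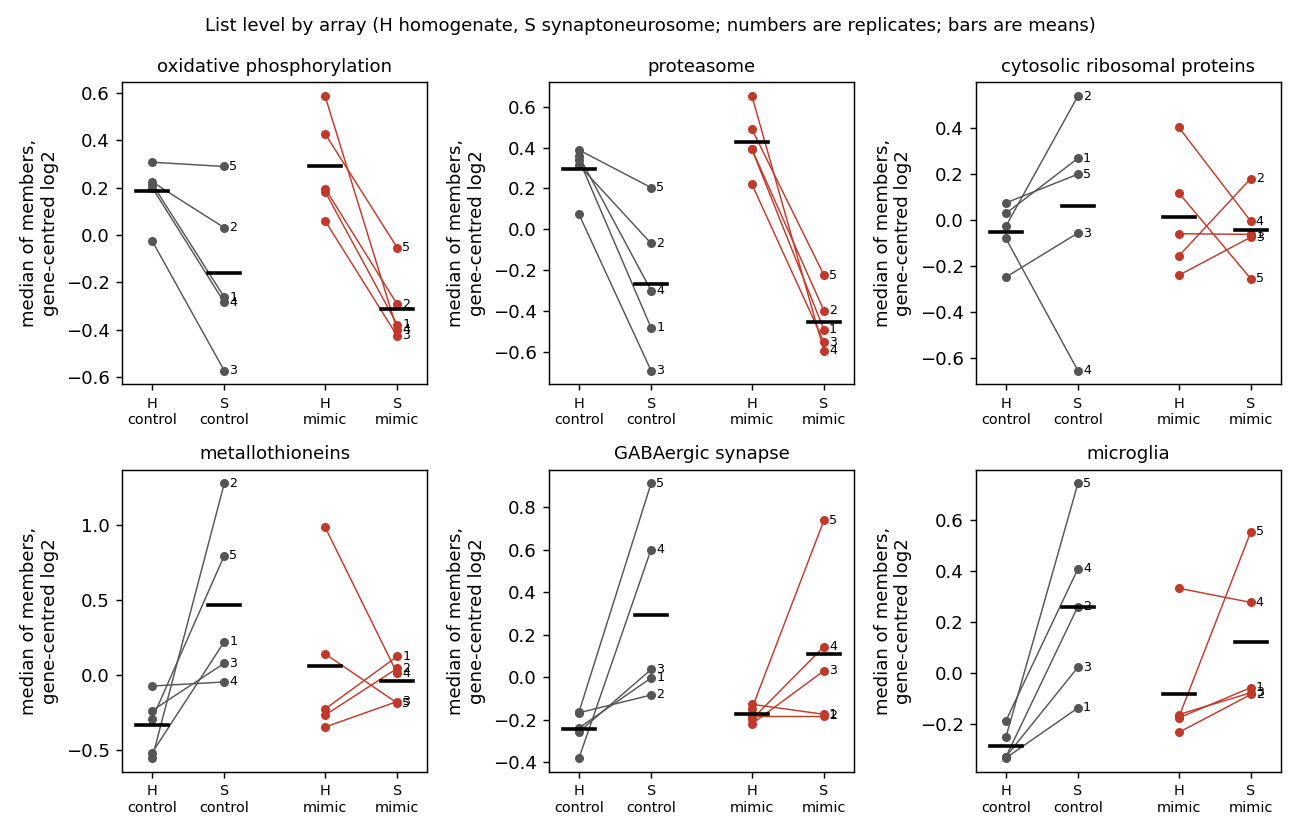
Median over the tested members of 6 lists on each array, each gene centred on its own mean over the 20 arrays (y axis, log2), by fraction and treatment (x axis); points are arrays with their number beside the synaptoneurosome ones, lines join equal numbers and bars are group means. Metallothioneins are highest in synaptoneurosome control 2 at 1.27 and homogenate mimic 4 at 0.98, and the GABAergic and microglia lists are highest in synaptoneurosome control 5 at 0.91 and 0.74.

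Receptor genes of several transmitters lay below 0. The GABAergic synapse list had 18 of 20 members below 0 and a median of -0.26, with 11 of 11 GABA-A receptor subunits below 0 at a median of -0.32. None was counted at an unadjusted p under 0.05. With the block 1 of 20 was counted, against 2.48% of all genes below 0, which was Gabrg1, a gamma subunit, at -0.40 ± 0.19. Gabra2, an alpha subunit, stood at -0.32 ± 0.26. Within a number Gabra2 in synaptoneurosomes exceeded homogenate by 0.81, 0.95, 1.00, 1.28 and 1.28 in control rats and by 0.44, 0.47, 0.73, 0.81 and 1.26 in mimic rats. Numbers 4 and 5 were high in both treatments, and the treatments overlapped. Without the 3 arrays that stood apart the median was -0.12 for the list and -0.15 for the GABA-A subunits. On an array of bulk tissue, fewer cells or endings of a kind and less RNA in each cannot be told apart.

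Other synaptic lists were also read without the same 3 arrays. Interneuron markers had 24 of 29 below 0 and a median of -0.21, which was -0.06 without them. Cort, the marker with the largest absolute t, stood at 0.25 ± 0.13, and Pvalb, the parvalbumin of fast-spiking cells, at -0.54 ± 0.30. Neuromodulator receptors had 37 of 46 below 0 and a median of -0.19, which was -0.02 without the 3 arrays. In this list Htr5b, a serotonin receptor, stood at -0.90 ± 0.58 and Adra1b, a noradrenaline receptor, at 0.27 ± 0.18. The serotonin receptors of that list had 9 of 10 below 0 and a median of -0.26. It was -0.19 without the 3 arrays and -0.17 without homogenate mimic 4 as well. AMPA and kainate receptor genes had 11 of 13 below 0 and a median of -0.21, which was -0.03 without them. In that group Cacng2, the AMPA receptor partner stargazin, stood at -0.48 ± 0.20. It was the 1 of 13 genes counted at an unadjusted p under 0.05, against 1.09% of all genes below 0. Cacng2 read 11.21, 11.46, 11.25, 11.74 and 11.85 in synaptoneurosome control and 11.08, 10.80, 10.98, 11.14 and 11.48 in synaptoneurosome mimic, while its homogenate arrays ran from 10.53 to 11.17. Only synaptoneurosome mimic 5 lay above the lowest control array. Cnih2, another AMPA receptor partner, stood at -0.25 ± 0.13, and Grik5, a kainate receptor subunit, at 0.27 ± 0.16. Metabotropic glutamate receptors had 5 of 6 below 0 and a median of -0.18, which was -0.13 without the 3 arrays. NMDA receptor genes had 4 of 6 below 0 and a median of -0.02, and presynaptic vesicle genes 17 of 27 and -0.09. Leaving out single arrays moved list medians either way. Without synaptoneurosome mimic 5 they were -0.34 for interneurons, -0.35 for neuromodulator receptors, -0.38 for AMPA and kainate genes and -0.43 for the GABAergic list. Without synaptoneurosome control 5 they were -0.12, -0.02, -0.04 and -0.14 in the same order.

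Postsynaptic scaffolds and dendritic transcripts lay on the other side of 0 with all arrays. Scaffold and signalling genes of the glutamatergic postsynapse had 4 of 19 below 0 and a median of 0.09, and dendritic messenger RNAs 5 of 21 and 0.12. Without the 3 arrays these medians were 0.01 and -0.03, with 8 of 19 and 12 of 21 below 0. Shank3, a scaffold whose RNA is found in dendrites, stood at 0.48 ± 0.46 and at 0.16 without the 3 arrays. In synaptoneurosomes Shank3 read 12.82, 12.21, 13.07, 11.51 and 11.03 in control rats and 12.58, 12.72, 12.93, 13.06 and 11.53 in mimic rats, with low values in control 4 and 5 and mimic 5 and overlap between the groups. Nrgn, the calmodulin-binding neurogranin of the same dendritic list, stood at -0.43 ± 0.19. It was the 1 of 21 members counted at an unadjusted p under 0.05, against 1.09% of all genes below 0. Its synaptoneurosome arrays read 15.09, 14.89, 14.81, 14.91 and 15.69 in control rats and 14.82, 14.76, 14.74, 15.08 and 14.74 in mimic rats, and its homogenate arrays 16.41, 16.34, 16.63, 16.57 and 16.60 against 16.60, 16.59, 16.57, 16.99 and 16.70. Both pairs of groups overlapped.

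Described targets of the miR-17 family, whose seed is printed above, showed no lean to either side with all arrays. Of 48 tested members of a list of 50, 24 were below 0 and the median was -0.02, against -0.026 over all genes. Without the 3 arrays that stood apart 31 of 48 were below 0 at a median of -0.05, against 60.2% and -0.029 over all genes. With all arrays the median of mimic minus control was 0.03 in homogenate and 0.04 in synaptoneurosomes, against 0.02 and -0.01 over all genes. The difference's median ran from -0.04 to 0.04 when single arrays were left out. Tsg101, an ESCRT protein of endosomal sorting, stood at -0.28 ± 0.13. It was the 1 of 48 members counted at an unadjusted p under 0.05, against 1.09% of all genes below 0. Its synaptoneurosome arrays read 10.32, 10.75, 10.14, 10.32 and 10.62 in control rats and 10.37, 10.27, 10.20, 10.13 and 10.22 in mimic rats, which overlapped. Ccnd1, the cell cycle gene cyclin D1, stood at 0.27 ± 0.18, and Tnfaip3, a ubiquitin-editing brake on NF-kappaB, at 0.22 ± 0.14. The silencing machinery itself had 10 of 28 genes below 0 and a median of 0.04, none counted with or without the block.

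**Figure D4:**
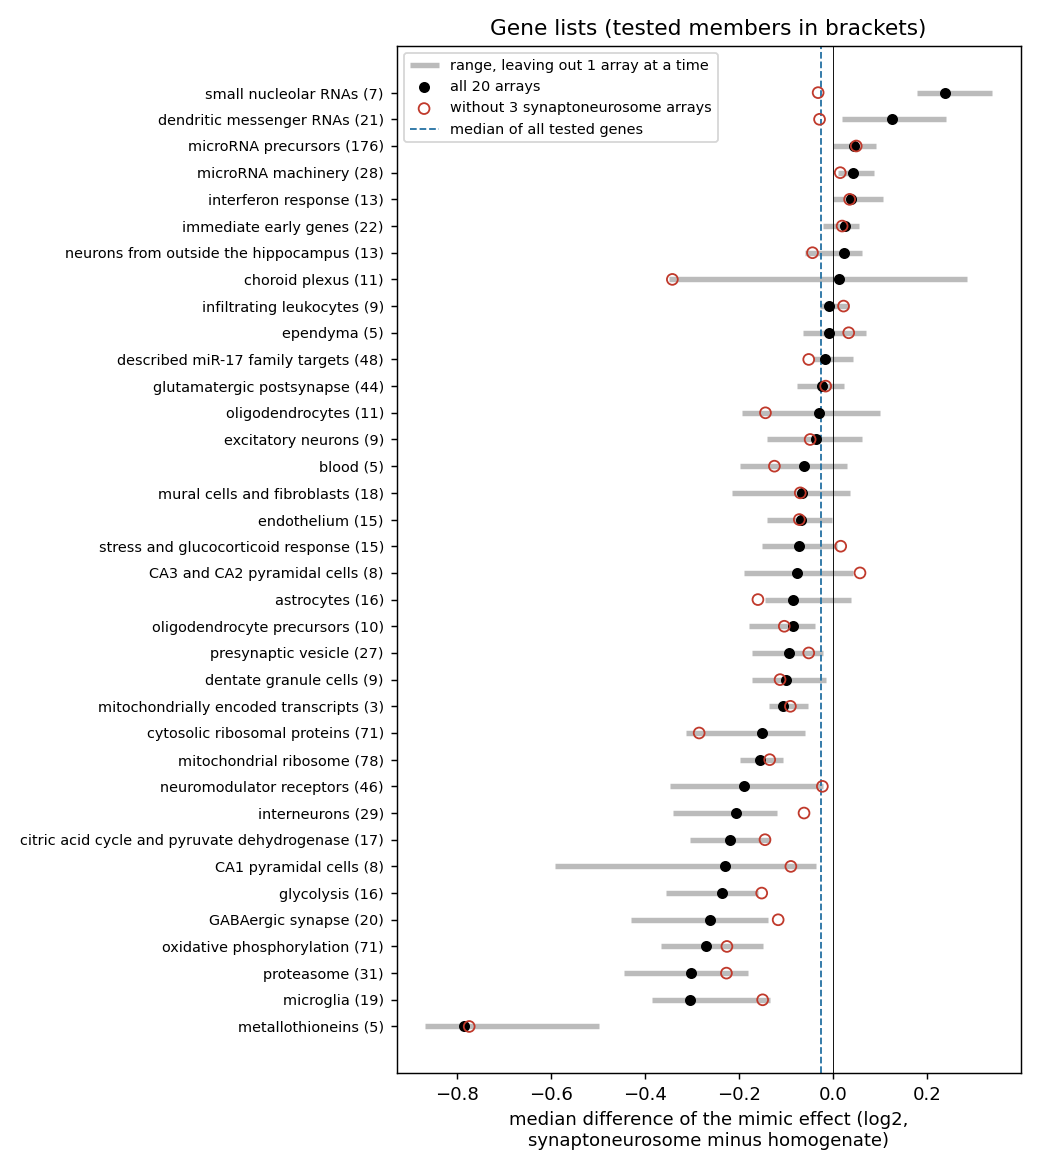
Median difference of the mimic effect, synaptoneurosome minus homogenate (x axis, log2), of 36 gene lists (y axis, tested members in brackets): black points with all 20 arrays, grey bars the range when 1 array is left out at a time, open red circles without the 3 synaptoneurosome arrays that stood apart, dashed line the median of all genes at -0.026. Metallothioneins lie lowest at -0.78, microglia and proteasome at -0.30, and small nucleolar RNAs highest at 0.24, where the open circle lies at -0.03.

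MicroRNA precursor genes had 69 of 176 tested members below 0 and a median of 0.045. At an unadjusted p under 0.05, 5 were counted above 0 against 0.478% of all genes, and 1 below 0 against 1.09%. With the block 8 were counted above 0 against 0.718% of all genes, and 3 below 0 against 2.48%. The shares over all genes are not matched for brightness, and dim genes were counted above 0 more often. Without the block, 52 of 3095 genes were counted above 0 in the dimmest brightness bin and 0 of 3093 in the brightest. The array names 382 precursor genes, most of the others being too dim to be tested. When each array was centred the list's median was 0.004, against -0.067 over all genes and -0.029 in the dimmest brightness bin. The list's rule names Mir376c, Mir299 and Mir30b. Mir376c and Mir299 lie on chromosome 6 in the large imprinted microRNA cluster of the Dlk1-Dio3 region, and their mature sequences are shown because they share no seed with the mimic or with each other.
rno-miR-376c-5p: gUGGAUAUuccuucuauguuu
rno-miR-376c-3p: aACAUAGAggaaauuucacgu
rno-miR-299a-5p: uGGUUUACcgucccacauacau
rno-miR-299a-3p: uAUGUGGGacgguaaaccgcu
The sequences are from RefSeq (GRCr8, plus strand), miR-376c-3p at chr6:134558256-134558276 and miR-299a-5p at chr6:134545075-134545096.

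Mir376c stood at 0.63 ± 0.18, the largest value among the 20 genes with the most extreme t apart from Mt1f. Its homogenate arrays read 5.27, 5.06, 5.17, 4.89 and 5.09 in control rats and 5.19, 5.02, 4.53, 4.75 and 4.83 in mimic rats, and its synaptoneurosome arrays 4.62, 5.31, 4.95, 5.21 and 4.82 against 5.46, 5.33, 5.54, 5.26 and 5.29. The groups overlapped in both fractions, and the lowest mimic array of the synaptoneurosomes lay above 4 of the 5 control arrays. Mir299 stood at 0.39 ± 0.14, with synaptoneurosome arrays of 5.74, 5.75, 5.37, 5.68 and 5.65 in control rats and 6.31, 6.03, 6.23, 6.17 and 5.98 in mimic rats, without overlap, and mimic minus control of 0.12 in homogenate. Mir30b stood at 0.36 ± 0.14, and within a number its synaptoneurosome minus homogenate values of 0.38, 0.29, 0.32, 0.58 and 0.39 in mimic rats lay above all of -0.19, 0.14, -0.10, 0.20 and 0.10 in control rats. It was the 1 of 176 precursors so separated, against 0.123% of all genes with mimic above control. These genes lay close to the limit below which genes were left out, 4.97. Around Mir376c, within 250 kb, 31 precursor genes were named and 17 tested, of which 4 were below 0, with a median of 0.22 and 0.15 without the 3 arrays (this neighbourhood was chosen after its values were seen). Mir376c and Mir299 were the only 2 of the 17 counted at an unadjusted p under 0.05, both above 0, against 0.478% of all genes. With the block 2 were counted above 0 and 1 below 0, against 0.718% and 2.48% of all genes. Mir376c sets the neighbourhood and was named for its t, so its count there is no separate result. Small nucleolar RNAs, which guide RNA modification in the nucleolus, had 2 of 7 below 0 and a median of 0.24 with all arrays and -0.03 without the 3 arrays, and the median of synaptoneurosome minus homogenate was -1.71 in control and -1.48 in mimic rats.

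Markers of the other cells of the tissue varied between the same arrays. Microglia, the resident immune cells of brain, had 18 of 19 tested markers below 0 and a median of -0.30, which was -0.15 without the 3 arrays and -0.09 without homogenate mimic 4 as well, and none was counted with or without the block. The centred median of the microglia list ran from -0.34 to -0.19 in homogenate control, -0.23 to 0.33 in homogenate mimic, -0.14 to 0.74 in synaptoneurosome control and -0.09 to 0.56 in synaptoneurosome mimic. Homogenate mimic 4, at 0.33, was above the other 4 homogenate mimic arrays, which lay between -0.23 and -0.16. C1qb, a complement subunit of microglia, stood at -0.79 ± 0.47 and Ly86, a microglial surface protein, at -0.36 ± 0.18. The part of microglia, of homogenate mimic 4 and of the 3 arrays in the values of the other lists was not tested.

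The medians of the other cell types described here lay between -0.23 and 0.01. Astrocyte markers had 10 of 16 below 0 and a median of -0.09, with Ntsr2, a neurotensin receptor of astrocytes, at -0.70 ± 0.34. Endothelial markers had 11 of 15 and -0.07, and mural cells and fibroblasts 13 of 18 and -0.07 with Vtn, vitronectin, at -0.83 ± 0.59. Oligodendrocytes had 7 of 11 and -0.03, and oligodendrocyte precursors 9 of 10 and -0.09. Without the 3 arrays astrocytes had 14 of 16 below 0 at -0.16 and oligodendrocytes 11 of 11 at -0.14. The oligodendrocyte median was 0.04 when the same numbers were left out in both fractions. Vtn was read at 9.11 in homogenate control 2 and 8.78 in synaptoneurosome control 2 against 7.35 to 8.07 and 6.23 to 7.79 in the other control arrays. Excitatory neurons had 6 of 9 below 0 and a median of -0.04, dentate granule cells 7 of 9 and -0.10, CA3 and CA2 pyramidal cells 6 of 8 and -0.08, and CA1 pyramidal cells 7 of 8 and -0.23. Without the 3 arrays the last 2 were at 0.06 and -0.09. Choroid plexus markers, of the tissue that makes cerebrospinal fluid, had 5 of 11 below 0 and a median of 0.01. Its sign changed when arrays were centred. It was -0.34 without the 3 arrays but 0.08 when the same numbers were left out in both fractions. Without synaptoneurosome mimic 5 alone it was -0.35, and without homogenate mimic 5 alone 0.28. The centred median of these markers was 0.81 in homogenate mimic 5 and 1.50 in synaptoneurosome mimic 5, and between -0.33 and -0.06 in the other 18 arrays. Kcne2, a potassium channel subunit of choroid plexus, stood at 0.27 ± 0.12 and at 0.13 without the 3 arrays.

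The medians of the remaining lists lay between -0.07 and 0.04. Immediate early genes had 9 of 22 below 0 and a median of 0.03, with Fosl2, a Fos-related factor, at 0.28 ± 0.23, and interferon response genes 4 of 13 and 0.04. The sign of both medians turned with quantile scaling or centring, as did that of neurons from outside the hippocampus (4 of 13, 0.02). Stress and glucocorticoid genes had 10 of 15 below 0 and a median of -0.07, infiltrating leukocytes 5 of 9 and -0.01, ependyma 3 of 5 and -0.01, and blood 3 of 5 and -0.06. The whole glutamatergic postsynapse list had 24 of 44 below 0 and a median of -0.02.

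Which array was left out decided how many genes were counted. Leaving out 1 array at a time gave from 140 to 742 genes at an unadjusted p under 0.05, in place of 243, and none at an adjusted p under 0.05. The count was 742 without synaptoneurosome mimic 5, 567 without control 3, 443 without control 4 and 433 without control 1 of that fraction, and it was 140 without synaptoneurosome control 5 and 143 without homogenate mimic 4. Without the 3 arrays it was 371, of which 276 were below 0.

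**Figure D5:**
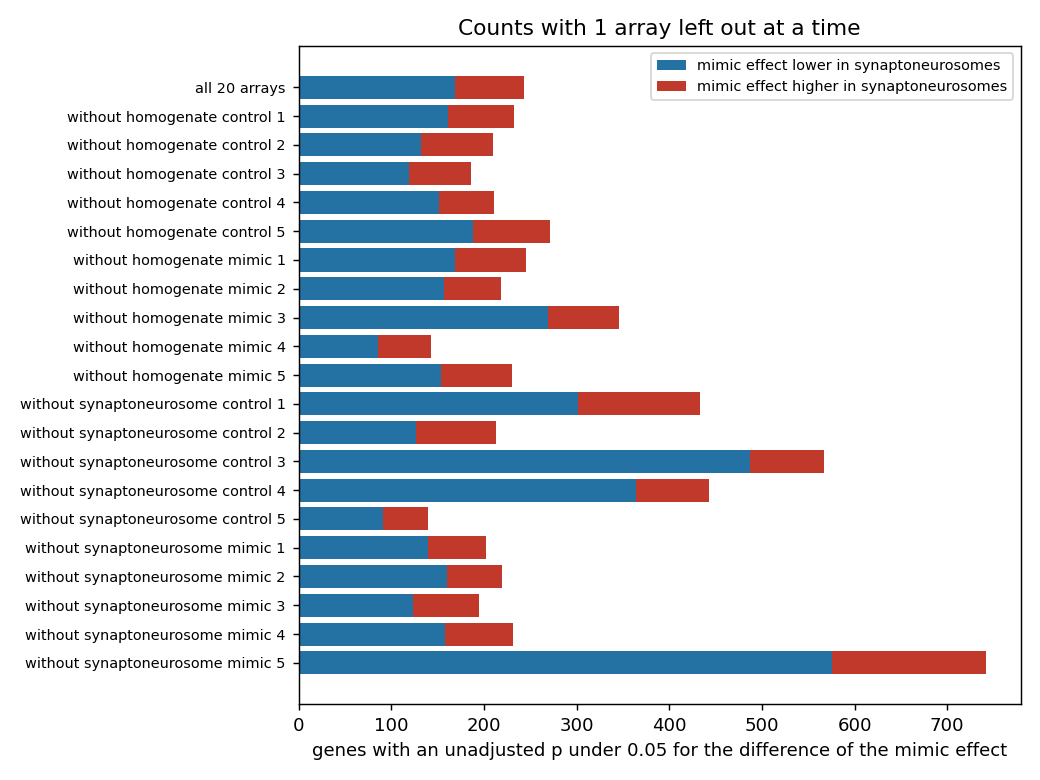
Number of genes with an unadjusted p under 0.05 for the difference of the mimic effect (x axis) with all 20 arrays and with each array left out (y axis), split into genes whose mimic effect was lower (blue) and higher (red) in synaptoneurosomes. The count is 243 with all arrays and runs from 140 without synaptoneurosome control 5 to 742 without synaptoneurosome mimic 5, and blue exceeds red in every bar.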

How the data were processed

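Expression was measured on arrays of total RNA, 100 ng per array, from 20 samples. The deposited table holds the authors' log2 expression values, which, per the submitters' processing notes, came from RMA in Transcriptome Analysis Console (version not given in the sources used here). This method corrects background, makes array distributions alike and summarises probes, which compresses differences of dim transcripts. Values were used as deposited (68842 probe sets, 2.11 to 19.93, array medians 5.11 to 5.26), and no replicate was a copy of another. The number of arrays limits the precision.

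Platform annotation gave 1 gene symbol for 23446 probe sets, several for 505, and left 44891 unnamed here. Each gene was represented by its brightest probe set over the 20 arrays, and the dimmest 30% of genes (mean below 4.97) were not tested. Groups and numbers came from the sample titles. limma 3.58.1 in R 4.3.3 fitted a mean per group (16 residual degrees of freedom, 2.56 prior degrees of freedom), two-sided, with Benjamini-Hochberg adjustment. The code was run on simulated data with independent noise in each gene and array. That run does not cover the shared component of the spread within groups of the real arrays. Errors after ± are standard errors over all 4 groups unless marked SD. Tables and plots used Python 3.11.15 with pandas 2.3.3, numpy 2.4.6 and matplotlib 3.10.9.

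The labels do not say that equal numbers are 1 animal. Deviations of same-numbered arrays from their group means correlated between fractions at 0.241 to 0.476 in control and 0.102 to 0.354 in mimic rats. Between different numbers the correlation reached 0.130 in control and 0.170 in mimic rats, above the lowest same-number values of mimic rats. Each array still correlated best with its own number, above 0.1 in every pair, so the numbers were taken to pair the arrays. The fit without the block was the main one, and the fit with it left 8 residual degrees of freedom.

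Genes were named by rule: the 10 most positive and 10 most negative moderated t, the 5 largest values in each direction, and per list the 3 members with the largest absolute t. Of the members named per list the text gives only a part. The 36 lists comprised 20 pathways or complexes and 16 cell types. Members and lists were chosen with earlier results of these data known. Lists were described and not tested. Alternatives varied the probe set rule, the filter, the scaling, the block, array weights, the prior and the arrays left out.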

Additional observations from a re-analysis of the deposited data

Results flagged for a closer look

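Among the genes named by rule, 268 groups of 5 arrays were examined for a single array far from the other 4, and 32 such values were found (11.9%, where chance gives about 1 in 20 groups, 5.0%) in 24 genes. That share cannot be set against chance, since 10 of the genes were named for the largest differences, which single deviant arrays can produce, and they hold 14 of the 32 values. Homogenate mimic 4 held 12 of them. It was high for Igfbp7 at 12.29 (10.52 to 10.78 in the other 4), Rps29 at 16.57, Apod at 13.37, Rps7 at 14.36, Psma4 at 9.20, Ppm1d at 9.0, Rpl36al1 at 10.46 and Ly86 at 5.97. It was low for Rpph1 at 15.19 (16.75 to 17.26), Snord33 at 18.51, Apeg3 at 8.17 and Cdc34-ps1 at 8.02. Without it the difference of the mimic effect was -0.88 for Igfbp7 in place of -1.20, 0.30 for Cdc34-ps1 in place of 0.72 and 0.47 for Apeg3 in place of 0.83.

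Synaptoneurosome mimic 5 held 5. It was low for Rpph1 at 14.30 and Snord33 at 14.79 and high for Igfbp7 at 11.40, Dad1 at 10.38 (8.08 to 8.39 in the other 4) and Atp5d at 6.92, and without it Dad1 stood at -1.58 in place of -1.15. Homogenate control 2 held 4, low for Klhl34 at 9.26 and Vasn at 5.46 and high for Apeg3 at 10.36 and Atp5d at 7.07.

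Homogenate control 3 was low for Ppm1d at 8.22 and Psma4 at 8.18. Synaptoneurosome mimic 4 was high for Mt1f at 5.73 and Nrgn at 15.08, and synaptoneurosome mimic 2 for Rps29 at 15.09 and Psma7 at 7.65. Single values stood apart for LOC102554193 in homogenate control 1 at 5.44, Spink4 in homogenate mimic 5 at 5.27, Eva1b in synaptoneurosome control 2 at 6.2, Mir299 in synaptoneurosome control 3 at 5.37 and LOC102553197 in synaptoneurosome control 5 at 4.87. The cause of these values was not tested.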

How the results depend on the processing

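No setting called a gene at an adjusted p under 0.05. Apart from Cort, Grik5 and Adra1b, the genes named by rule whose values the report prints kept their direction in each setting run. Cort, Grik5 and Adra1b were read only with single arrays left out and without the 3 arrays, and stayed above 0 there. Others that the rule names changed sign, such as Penk, from -0.61 to 0.10 without the 3 synaptoneurosome arrays that stood apart. The count at an unadjusted p under 0.05, 243 with the settings as reported, was 548 with no filter on dim genes (more genes tested), 126 with the lowest 50% left out (fewer genes tested), 371 without the 3 synaptoneurosome arrays that stood apart, and from 140 to 742 when single arrays were left out. With the replicate block it was 494 as a fixed term and 442 as a random one. A fixed replicate block without the 3 numbers that stood apart, chosen after seeing the data, gave 814. The separation of within-number fraction differences, 60 genes, became 110 with no filter, 33 with the lowest 50% left out, 91 after quantile scaling, 91 after centring, 758 without the 3 numbers, which leaves fewer pairs to separate, and 84 to 320 when single numbers were left out (173, 112, 148, 195 and 84 for control 1 to 5, and 124, 109, 137, 95 and 320 for mimic 1 to 5).

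Of list medians, metallothioneins moved to -0.365 with array weights, presynaptic vesicle genes to -0.201 after quantile scaling, small nucleolar RNAs to -0.032 and stress and glucocorticoid genes to 0.016 without the 3 arrays, leukocytes to -0.142 with the lowest 50% left out and ependyma to -0.082 with no filter. Leaving out single arrays gave -0.151 to 0.009 for stress and glucocorticoid genes, -0.0 to 0.106 for interferon response genes and -0.064 to 0.069 for ependyma. Other list medians moved by less than the spread between arrays in 1248 comparisons. Leaving out single arrays turned the sign of 15 list medians: CA3 and CA2, astrocytes, blood, choroid plexus, miR-17 family targets, ependyma, excitatory neurons, glutamatergic postsynapse, immediate early genes, leukocytes, microRNA precursors, mural cells, neurons from outside the hippocampus, oligodendrocytes, and stress and glucocorticoid genes. The cause was not tested. Array weights, the prior and the random block do not apply to the separation counts, and ependyma had too few genes left with the lowest 50% left out.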
